A study of Mus musculus with 6 samples.

Results

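Müller glia are the radial glia of the vertebrate retina, and 10 genes that mark them were followed in RNA-Seq libraries made from sorted mouse retinal cells: *Glul*, *Slc1a3*, *Rlbp1*, *Aqp4*, *Car14*, *Abca8a*, *Dkk3*, *Crym*, *Sox9* and *Sox2*. They were chosen by name, as genes known for this cell type, out of the 55573 gene identifiers in the count table. Earlier results of these data were known at that choice. All 10 had enough counts to be tested. Adult C57BL/6J mice received AAV2-*GFP* (control) or AAV2-*Ezh2* in the vitreous, the optic nerve was crushed 2 weeks later, and retinal cells were collected 3 days after the crush. There were 3 GFP libraries and 3 Ezh2 libraries, and every animal, controls included, carried a virus and a crushed nerve. *Ezh2* encodes the enzyme of Polycomb repressive complex PRC2 that methylates histone H3 at a lysine of its tail. The cells were sorted for surface CD90.2, the product of *Thy1*, and for exclusion of a dead cell dye, in order to enrich retinal ganglion cells (RGCs). The promoter of the viral transgene and the number of animals behind a library are not given in the sources used here, so p values measure the spread between these libraries, which may be technical.

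Müller glia span the whole thickness of the neural retina and wrap neurons, synapses and vessels. They take up the transmitter glutamate and turn it into glutamine, carry water, potassium and acid out of the tissue, bind retinoids for the cones, and keep transcription factors of the retinal progenitor. After injury they become reactive and make more of the filament protein GFAP.

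The count totals were 30569933 to 35971192 per library. Levels are given as CPM, the counts of a gene divided by the library total and scaled up to a fixed depth. *Ezh2* itself was at 28.8 to 34.6 CPM in the GFP libraries, at 78.0 and 65.3 CPM in Ezh2 replicates 1 and 2, and at 104.8 CPM in Ezh2 replicate 3. The study left 1 Ezh2 library out after inspecting how the libraries clustered and shows Ezh2 replicates 1 and 2, so the omitted library was taken to be Ezh2 replicate 3. Across genes that library correlated at 0.959 to 0.973 with the others. The main comparison therefore took the 3 GFP libraries against Ezh2 replicates 1 and 2, and Ezh2 replicate 3 is described beside it.

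The label RGC was set against the defining markers of that cell. *Pou4f2* and *Pou4f3*, transcription factors of RGCs, lay between 0 and 0.404 CPM in the 6 libraries, and too few counts were present for a test. *Rbpms*, an RNA-binding protein that marks RGCs, was at 16.4 to 17.9 CPM in the GFP libraries and 16.8 to 20.8 CPM in the Ezh2 libraries. Summed over a list of 12 RGC markers, the GFP libraries held 141.3 to 145.3 CPM, whereas the 10 Müller glia genes held 21876 to 22659 CPM. Per kilobase of exon (RPKM), a scale on which genes can be compared, *Rbpms* stood at 2.65 and *Thy1*, the sorted marker, at 30.1 in the GFP group, below *Glul* at 2936 ± 57.3 (SD, n = 3). Messenger RNA of Müller glia was thus abundant in cells sorted as RGCs, and how it came into the libraries was not tested. In bulk RNA such as this, fewer cells of a type and less RNA per cell cannot be told apart.

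Other cell types express some of the 10 genes, and their markers were read in the same libraries. *Aqp4*, *Glul*, *Slc1a3* and *Sox9* are also made by astrocytes. Of a list of 8 astrocyte markers, the transcription factor *Pax2* was at 0.528 to 1.05 CPM and the gap junction gene *Gja1* at 4.22 to 7.0 CPM over the 6 libraries, whereas *Aldh1l1*, a folate enzyme, was at 160 to 206 CPM and *Gfap*, a filament that reactive Müller glia make too, at 413 to 919 CPM. The list summed to 617 to 649 CPM in the GFP libraries and 897 to 1136 CPM in the Ezh2 libraries. Most of each sum was *Gfap*, at 413 to 426 CPM in the GFP libraries and 719 to 919 CPM in the Ezh2 libraries. *Aldh1l1* overlapped, at 186 to 206 CPM and 160 to 193 CPM. The part of astrocytes in the 10 genes was not tested. *Rlbp1* is also made by the retinal pigment epithelium, whose isomerase *Rpe65* lay between 0 and 0.343 CPM, with all 9 markers of that layer summing to 9.67 to 11.9 CPM in the GFP group and to 8.62 to 11.2 CPM in the Ezh2 group. Of 7 oligodendrocyte markers, 3 were at 0 in every library, *Mog*, *Olig1* and *Olig2*, where a count of 0 allows up to 0.0834 to 0.0981 CPM by counting error alone. The whole list did not follow these 3, as it summed to 175 to 180 CPM in the GFP libraries and 189 to 197 CPM in the Ezh2 libraries. The part of oligodendrocytes was not tested.

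Upstream sequence of 3 of the genes is shown first, because PRC2 in mammals is found mostly at promoters rich in CpG and these genes differ in it. RefSeq promoters (GRCm38.p6) matched 6 of the 10 genes, *Glul*, *Rlbp1*, *Slc1a3*, *Sox2*, *Car14* and *Abca8a*. The 250 bases before the start are given for *Glul* (chr1:153899679-153899928, plus strand), *Slc1a3* (chr15:8710808-8711057, minus strand) and *Sox2* (chr3:34649745-34649994, plus strand), 5′ to 3′ in the direction of transcription, with each CG in capitals.
Glul: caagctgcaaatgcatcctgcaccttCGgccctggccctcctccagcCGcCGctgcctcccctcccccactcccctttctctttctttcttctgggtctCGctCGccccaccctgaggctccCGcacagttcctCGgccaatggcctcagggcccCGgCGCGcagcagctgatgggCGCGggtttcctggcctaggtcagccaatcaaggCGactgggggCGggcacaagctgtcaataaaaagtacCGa
Slc1a3: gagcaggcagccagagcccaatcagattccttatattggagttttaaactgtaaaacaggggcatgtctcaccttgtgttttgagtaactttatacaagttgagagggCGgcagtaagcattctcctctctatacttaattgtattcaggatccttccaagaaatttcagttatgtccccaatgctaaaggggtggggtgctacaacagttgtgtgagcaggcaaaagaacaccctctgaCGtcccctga
Sox2: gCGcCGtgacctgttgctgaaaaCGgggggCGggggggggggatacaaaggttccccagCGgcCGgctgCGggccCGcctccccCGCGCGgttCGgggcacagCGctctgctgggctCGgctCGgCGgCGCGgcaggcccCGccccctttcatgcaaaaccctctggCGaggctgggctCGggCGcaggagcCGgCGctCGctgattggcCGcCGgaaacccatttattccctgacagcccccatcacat
*Sox2* had 27 CG in this window, as many as or more than all but a small part of the table, since 8.56% of 32851 promoters had at least 27. *Glul* had 15, *Car14* 10, *Rlbp1* 6, *Abca8a* 4 and *Slc1a3* 2, and the median over all promoters was 6. The letters ACAAT, the core bound by SOX factors, were found on either strand in the windows of *Slc1a3* and *Abca8a* and not in those of the other 4, and 27.7% of all promoters held them. A match in these letters is a description of the window and no site of binding, and PRC2 binding and histone methylation were not measured in these libraries.

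The 10 genes were read together as a share of all counts. They made up 2.27%, 2.19% and 2.26% of counts in GFP replicates 1, 2 and 3, 1.72% and 1.77% in Ezh2 replicates 1 and 2, and 1.38% in Ezh2 replicate 3. The counting error was small beside these gaps, with the Wilson 95% interval of the last share at 1.37% to 1.38%. The share in the Ezh2 group, 1.74% ± 0.036 (SD, n = 2), was 0.779 of the share in the GFP group, 2.24% ± 0.045 (SD, n = 3), and 0.724 of it with all 3 Ezh2 libraries. Every Ezh2 library lay below every GFP library. No test is given for the sum, because the genes were chosen with results of these libraries known.

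**Figure D1:**
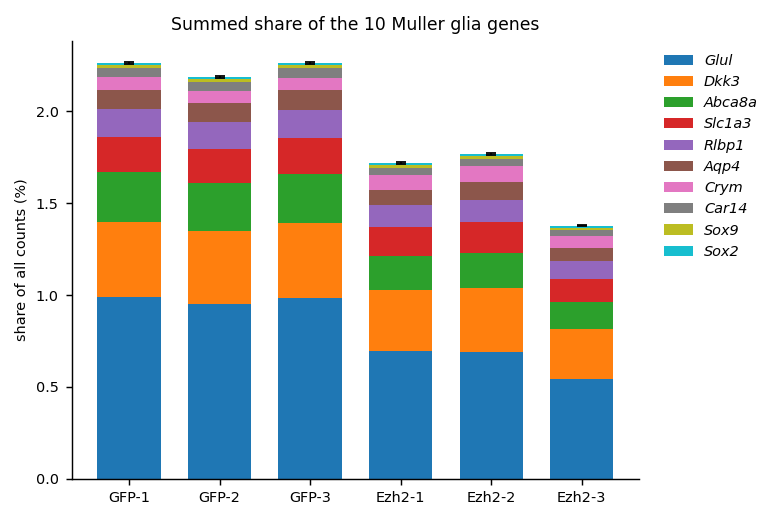
Share of all counts (%) taken by the 10 Müller glia genes in each library, stacked by gene, with the Wilson 95% interval of the sum as a black bar. The GFP libraries reach 2.19% to 2.27%, Ezh2 replicates 1 and 2 reach 1.72% and 1.77%, and Ezh2 replicate 3 reaches 1.38%.

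*Glul* carried the largest part of this sum. It gave 43.4% to 43.7% of the counts of the 10 genes in the GFP libraries and 39.0% to 40.4% in the 3 Ezh2 libraries, so the ratio of the shares was 0.833 once *Glul* was taken out. *Crym* moved the other way, from 3.05% to 3.09% of these counts in the GFP libraries to 4.60% to 4.98% in the Ezh2 libraries. *Sox9* gave 0.661% to 0.717% in the GFP libraries and 0.932% to 1.08% in the Ezh2 libraries. The makeup of the summed counts of these 10 genes differed between the groups as well as their size.

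To compare the groups gene by gene, counts were fitted over all 20241 genes with the edgeR quasi-likelihood test. A call needed an adjusted p below 0.05 together with a change of more than 1.5-fold. None of the 10 genes was called in either direction (0 of 10), where 1.28% of all tested genes were called lower and 2.52% higher. Without the fold threshold, 7 of the 10 were lower and 1 was higher at the adjusted p, against 7.68% and 10.1% of all genes. The same 8 had an unadjusted p under 0.05, as did 5935 of all 20241 genes. DESeq2 and limma-voom also called 0 with the fold threshold and gave 7 lower and 1 higher without it. The median log2 fold change was -0.23 over the 10 genes and -0.0078 over all tested genes. With all 6 libraries the counts at the adjusted p fell to 4 lower and 0 higher, against 2.7% and 3.08% of all genes. At an unadjusted p under 0.05 there were still 8 of 10, against 4834 of all 19732 genes. Of the 4 lower genes 1, *Abca8a*, passed the fold threshold too, where 0.902% of genes were called lower and 1.62% higher.

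**Figure D2:**
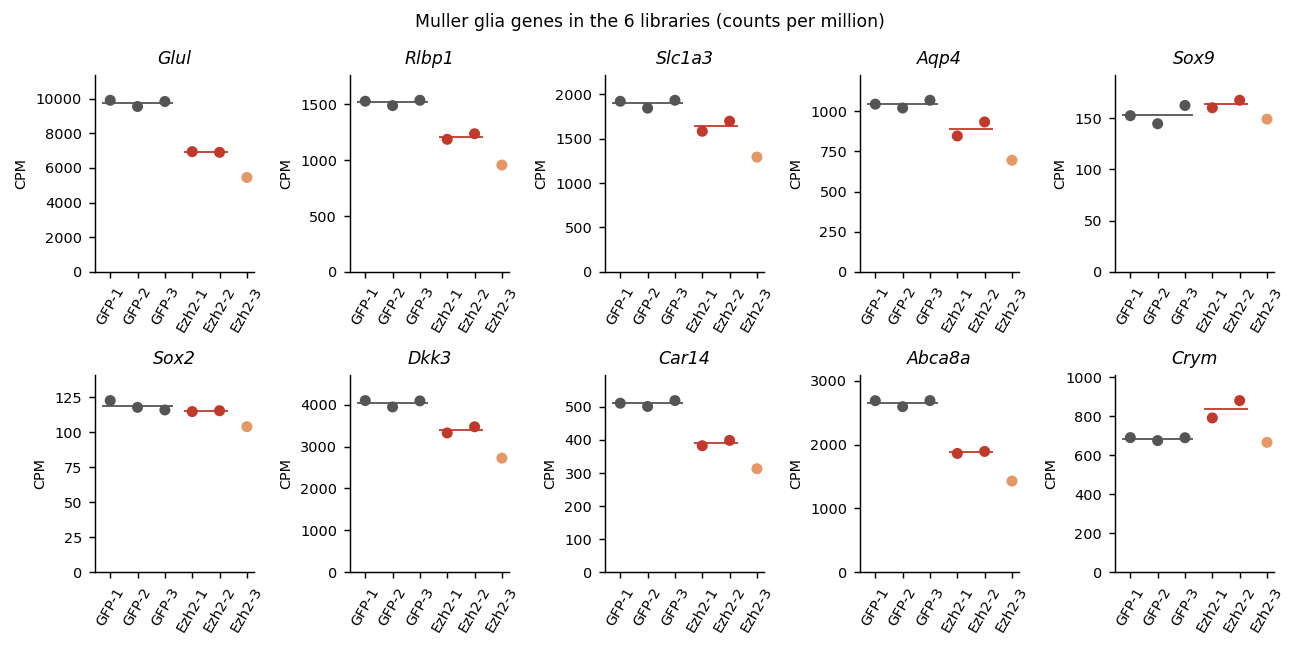
CPM of each of the 10 genes in GFP replicates 1 to 3 (grey), Ezh2 replicates 1 and 2 (red) and Ezh2 replicate 3 (orange), on axes that start at 0, with a line at the mean of the GFP group and of Ezh2 replicates 1 and 2. *Glul*, *Abca8a*, *Car14*, *Rlbp1*, *Dkk3*, *Slc1a3* and *Aqp4* are lower in each Ezh2 library than in any GFP library, *Crym* is higher in Ezh2 replicates 1 and 2 alone, and *Sox9* overlaps.

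By raw level the groups did not overlap for 9 of the 10 genes in the 5 libraries. In 8 genes both Ezh2 values lay below every GFP value, against 23.4% of all genes, and in *Crym* both lay above, against 21.5%. With all 6 libraries the same 8 genes stayed below, against 19.1% of all genes, and 0 of 10 above, against 14.6%. These counts depend on the scaling. On effective library sizes (TMM) *Sox2* overlapped, and *Crym* was above every GFP value in each Ezh2 library. Ezh2 replicate 3 alone lay below the GFP range in 9 genes, where 47.1% of all genes did, and within it for *Sox9*. In 0 of the 10 was it above the highest GFP value on this scale, where 31.9% of all genes were.

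The genes of the glutamate cycle come first. *Glul* (ENSMUSG00000026473, chromosome 1, 153899944 to 153909723, plus strand, GRCm38) encodes glutamine synthetase, which turns glutamate and ammonia into glutamine and in the retina is a hallmark of Müller glia. It was at 9900, 9540 and 9829 CPM in GFP replicates 1, 2 and 3, at 6937 and 6898 CPM in Ezh2 replicates 1 and 2, and at 5446 CPM in Ezh2 replicate 3. The 3 GFP values were close together and all 3 Ezh2 values were below them. This was a log2 fold change of -0.49 ± 0.05 (SE), a level 28.6% lower, at an adjusted p of 4.01e-08 in edgeR. In all 6 libraries it was -0.57 ± 0.09 with an adjusted p of 0.00953 in edgeR. *Glul* was the fourth most abundant of all genes by counts in the GFP group. Of the 50-base words in its transcripts, 12.6% also occur in other transcripts, most of them in the pseudogene *Glns-ps1*, and its exons overlap the antisense gene *Teddm2* over 116 bases, so its counts are uncertain to that extent.

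*Slc1a3* (ENSMUSG00000005360, chromosome 15, 8634124 to 8710764, minus strand) encodes GLAST, the transporter by which Müller glia clear glutamate from the retina. It was at 1920, 1843 and 1932 CPM in the GFP libraries, at 1583 and 1696 CPM in Ezh2 replicates 1 and 2, and at 1292 CPM in Ezh2 replicate 3. All Ezh2 values were again below all GFP values, but by less than for *Glul*. Its fitted log2 fold change was -0.20 ± 0.05 (SE) at an adjusted p of 0.00605 in edgeR, and the adjusted p was 0.0683 when Ezh2 replicate 1 was left out and 0.0926 with all 6 libraries.

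The gap between these genes was read within each library, as the ratio of *Glul* to *Slc1a3* counts, which no scaling of the library can change. The ratio was chosen after the values were seen. It was 5.16, 5.18 and 5.09 in the GFP libraries and 4.38, 4.07 and 4.21 in Ezh2 replicates 1, 2 and 3. Its mean was 5.14 ± 0.046 (SD, n = 3) in the GFP group and 4.22 ± 0.158 (SD, n = 3) in the Ezh2 group. The enzyme transcript was lower relative to the transporter transcript in 3 of 3 Ezh2 libraries, a description with no test.

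Among 7 further genes of glutamate and glutamine handling, 0 were called, 2 were lower and 0 higher at the adjusted p alone (7.68% and 10.1% of all genes), and 3 had an unadjusted p under 0.05. Fitting all 6 libraries left 1 lower, *Slc1a2*, and 0 higher, against 2.7% and 3.08% of all genes. The largest difference downward was that of *Slc1a2*, which encodes the transporter GLT-1, found on astrocytes and on some retinal neurons, at 838 to 904 CPM in the GFP libraries, 668 and 666 CPM in Ezh2 replicates 1 and 2 and 514 CPM in Ezh2 replicate 3. Its log2 fold change was -0.36 ± 0.05 (SE) at an adjusted p of 3.64e-06 in edgeR. At the other end *Glud1*, which encodes mitochondrial glutamate dehydrogenase, had a log2 fold change of 0.06 ± 0.05 (SE) at an adjusted p of 0.446 in edgeR, and stood at 202 CPM in Ezh2 replicate 3 against 171 to 180 CPM in the GFP libraries.

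*Rlbp1* (ENSMUSG00000039194, chromosome 7, 79374870 to 79387048, minus strand) encodes CRALBP, which binds 11-cis retinoids in Müller glia and pigment epithelium. Its level was 1527, 1488 and 1535 CPM in the GFP libraries, 1186 and 1236 CPM in Ezh2 replicates 1 and 2, and 956 CPM in Ezh2 replicate 3. All Ezh2 values stood below the GFP values. In the fit this gave a log2 fold change of -0.31 ± 0.05 (SE) at an adjusted p of 2.74e-05 in edgeR, and -0.39 ± 0.08 at 0.0288 with all 6 libraries.

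Of 6 further genes of retinoid handling, 1 was called, upward, where 2.52% of all genes were called higher and 1.28% lower. At the adjusted p alone 2 were higher and 0 lower, against 10.1% and 7.68% of all genes. With all 6 libraries these were 1 and 0, against 3.08% and 2.7%. The called gene was *Dhrs3*, which encodes a reductase that turns retinal into retinol. It was at 50.9, 49.2 and 52.1 CPM in the GFP libraries, at 89.3 and 99.5 CPM in Ezh2 replicates 1 and 2, and at 73.3 CPM in Ezh2 replicate 3. It rose by a log2 fold change of 0.91 ± 0.06 (SE) at an adjusted p of 1.10e-11 in edgeR, and all Ezh2 values were above the GFP values. *Rgr*, a retinoid-binding opsin, had the lowest fold change of this list, -0.52 ± 0.23 (SE), at 3.70 to 4.26 CPM in the GFP libraries, 2.48 and 2.91 CPM in Ezh2 replicates 1 and 2 and 4.42 CPM in Ezh2 replicate 3, and did not pass the test with an adjusted p of 0.120 in edgeR. The retinoid binding protein of Müller glia among the 10 genes and the reductase of this list thus lay on opposite sides of 0.

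*Aqp4* (ENSMUSG00000024411, chromosome 18, 15389496 to 15410982, minus strand) encodes the water channel of the glial endfeet. It was at 1044, 1020 and 1069 CPM in the GFP libraries, at 846 and 934 CPM in Ezh2 replicates 1 and 2, and at 695 CPM in Ezh2 replicate 3. The groups did not overlap, and the Ezh2 libraries were spread more widely than the GFP libraries. The log2 fold change was -0.22 ± 0.05 (SE) at an adjusted p of 0.00324 in edgeR, which became 0.0727 without Ezh2 replicate 1 and 0.0830 with all 6 libraries. Relative to *Slc1a3* its level was 0.544 to 0.554 in the GFP libraries and 0.535 to 0.550 in the Ezh2 libraries, ranges that overlapped.

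*Car14* (ENSMUSG00000038526, chromosome 3, 95897768 to 95904691, minus strand) encodes a carbonic anhydrase of the cell membrane that helps to buffer acid outside the cell. It was at 511, 501 and 519 CPM in the GFP libraries, at 383 and 399 CPM in Ezh2 replicates 1 and 2, and at 313 CPM in Ezh2 replicate 3. Its log2 fold change was -0.38 ± 0.05 (SE) at an adjusted p of 1.76e-06 in edgeR and -0.45 ± 0.08 at 0.0145 with all 6 libraries. Its exons overlap those of the antisense gene *Aph1a* over 445 bases, and as the sources used here do not say whether counting took the strand into account, reads of the pair cannot be told apart there.

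The 9 further genes of water, potassium and pH handling gave 0 calls, and 6 had an unadjusted p under 0.05, where 5935 of all 20241 genes did. At the adjusted p alone 3 were lower and 1 higher, against 7.68% and 10.1% of all genes. These became 2 lower and 0 higher with all 6 libraries, against 2.7% and 3.08%. *Kcnj10*, the main potassium channel of Müller glia, was at 502 to 541 CPM in the GFP libraries, at 432 and 415 CPM in Ezh2 replicates 1 and 2 and at 363 CPM in Ezh2 replicate 3. Its log2 fold change of -0.28 ± 0.05 (SE) had an adjusted p of 9.57e-05 in edgeR. *Kcnj2*, a related channel, had the highest fold change of this list, 0.51 ± 0.18 (SE), at 3.97 to 6.22 CPM in the GFP libraries, 7.27 and 7.71 CPM in Ezh2 replicates 1 and 2 and 6.51 CPM in Ezh2 replicate 3. Its adjusted p in edgeR was 0.0475, and 0.175 with all 6 libraries.

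*Abca8a* (ENSMUSG00000041828, chromosome 11, 110025634 to 110095978, minus strand) encodes a lipid transporter of the ABC family. It was at 2690, 2597 and 2692 CPM in the GFP libraries, at 1863 and 1895 CPM in Ezh2 replicates 1 and 2, and at 1429 CPM in Ezh2 replicate 3. The gap was larger than the spread within either group. The log2 fold change was -0.49 ± 0.05 (SE) at an adjusted p of 2.09e-08 in edgeR, and its 95% interval ran from -0.59 to -0.39, much as for *Glul*. With all 6 libraries it fell by 0.59 ± 0.09 on the log2 scale at an adjusted p of 0.0100 in edgeR, just past the fold threshold. Only 1.64% of its 50-base words were shared with other transcripts, all of them with its neighbour *Abca8b*.

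*Dkk3* (ENSMUSG00000030772, chromosome 7, 112116017 to 112159057, minus strand) encodes a secreted protein of the Dickkopf family. It was at 4101, 3949 and 4093 CPM in the GFP libraries, at 3327 and 3474 CPM in Ezh2 replicates 1 and 2, and at 2726 CPM in Ezh2 replicate 3. It was lower in each Ezh2 library, with a log2 fold change of -0.24 ± 0.05 (SE) and an adjusted p of 9.93e-04 in edgeR, which was 0.0604 with all 6 libraries.

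*Crym* (ENSMUSG00000030905, chromosome 7, 120186380 to 120202111, minus strand), which encodes a crystallin that binds thyroid hormone in the cytosol, was the only gene of the 10 higher at the adjusted p in the 5 libraries. It was at 691, 675 and 690 CPM in the GFP libraries and at 791 and 881 CPM in Ezh2 replicates 1 and 2, but at 666 CPM in Ezh2 replicate 3. On library totals the third Ezh2 library was therefore below the GFP range, whereas on effective library sizes (TMM) it was at 700 CPM, above the GFP values of 667 to 682 CPM. The log2 fold change was 0.30 ± 0.05 (SE) at an adjusted p of 9.52e-05 in edgeR in the 5 libraries, and 0.22 ± 0.09 at 0.154 with all 6. Relative to *Slc1a3*, *Crym* stood at 0.360, 0.366 and 0.357 in the GFP libraries and at 0.500, 0.519 and 0.515 in Ezh2 replicates 1, 2 and 3. On this ratio the third Ezh2 library lay between the other Ezh2 libraries.

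The nuclear factors made the last group. *Sox9* (ENSMUSG00000000567, chromosome 11, 112782224 to 112787760, plus strand), a transcription factor needed for gliogenesis, was at 152, 145 and 162 CPM in the GFP libraries, at 160 and 167 CPM in Ezh2 replicates 1 and 2, and at 149 CPM in Ezh2 replicate 3. The groups overlapped. The log2 fold change of 0.11 ± 0.05 (SE) did not pass the test, with an adjusted p of 0.187 in edgeR and a 95% interval from -0.0038 to 0.22, which leaves out a fall of the size fitted for *Glul*.

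*Sox2* (ENSMUSG00000074637, chromosome 3, 34650405 to 34652461, plus strand), a factor of progenitors that Müller glia keep, was at 122.5, 117.7 and 115.8 CPM in the GFP libraries, at 114.7 and 115.3 CPM in Ezh2 replicates 1 and 2, and at 103.9 CPM in Ezh2 replicate 3. These values did not overlap, but on effective library sizes (TMM) they did, at 114 to 121 CPM in the GFP and 109 to 116 CPM in the Ezh2 libraries. On library totals the means of 118.7 and 115.0 CPM in the 5 libraries were about as far apart as the SD of the GFP group, 3.46 CPM. Its log2 fold change was -0.03 ± 0.05 (SE) at an adjusted p of 0.724 in edgeR and a 95% interval from -0.14 to 0.07, so a change of the size fitted for *Glul* lies outside this interval.

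**Figure D3:**
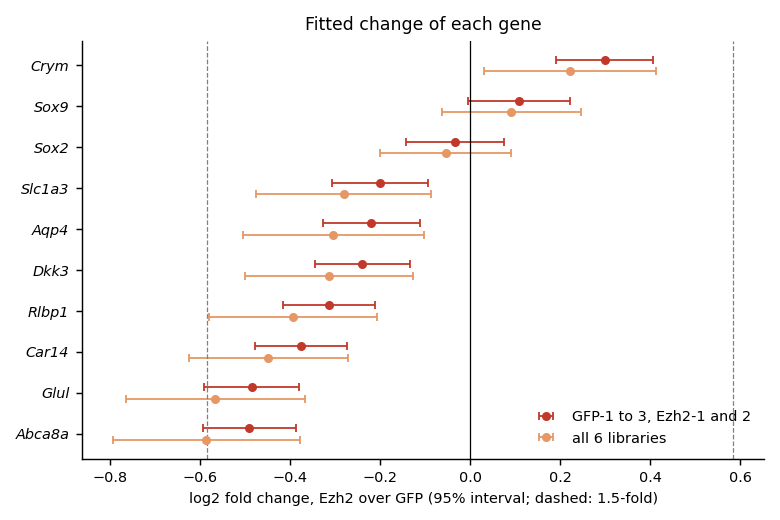
Log2 fold change of each gene, Ezh2 over GFP, with its 95% interval, from the edgeR fit of the 5 libraries (red) and of all 6 (orange). Dashed lines mark a 1.5-fold change. *Abca8a* and *Glul* lie lowest at -0.49 each in the 5 libraries, *Sox2* and *Sox9* have intervals that include 0, and *Crym* lies at 0.30.

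Set against *Slc1a3* within each library, the other 9 genes did not all move alike. The ratio was lower in all 3 Ezh2 libraries than in any GFP library for 5 genes (*Glul*, *Abca8a*, *Car14*, *Rlbp1* and *Dkk3*), where 3.85% of all tested genes were, and higher for 3 (*Sox9*, *Sox2* and *Crym*), where 43% were. *Aqp4* overlapped. For *Sox9* the ratio was 0.0794, 0.0784 and 0.0841 in the GFP libraries and 0.101, 0.0987 and 0.115 in the Ezh2 libraries. These ratios too were chosen after the values were seen and are given with no test.

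Of 13 other glial and progenitor transcription factors, 0 were called, 5 were lower and 1 higher at the adjusted p alone, and 10 had an unadjusted p under 0.05. Over all genes these shares were 7.68% lower and 10.1% higher. Fitting all 6 libraries left 0 lower and 1 higher, *Hes5*, against 2.7% and 3.08% of all genes. *Nfia*, which promotes gliogenesis, had the lowest fold change, -0.23 ± 0.05 (SE) at an adjusted p of 0.00228 in edgeR (0.0584 with all 6 libraries), from 211 to 232 CPM in the GFP libraries to 180 and 191 CPM in Ezh2 replicates 1 and 2 and 162 CPM in Ezh2 replicate 3. *Hes5*, an effector of Notch, had the highest, 0.40 ± 0.09 (SE) at an adjusted p of 0.00150, from 20.4 ± 0.44 CPM (SD, n = 3) in the GFP libraries to 27.8 and 25.5 CPM in Ezh2 replicates 1 and 2 and 25.6 CPM in Ezh2 replicate 3. Its exons overlap the antisense transcript *Gm20421*.

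Over all genes 2.52% were called higher and 1.28% lower. Among 13 other Müller glia genes, of which 12 were tested, 1 was called. This was *Apoe*, the apolipoprotein that glia secrete, at 5471, 5637 and 5501 CPM in the GFP libraries, 8460 and 9638 CPM in Ezh2 replicates 1 and 2 and 7102 CPM in Ezh2 replicate 3. It rose by 0.72 ± 0.06 (SE) on the log2 scale at an adjusted p of 1.28e-10 in edgeR. *Apoe* is also made by microglia and macrophages. A list of 7 microglial markers summed to 1217 to 1354 CPM in the GFP libraries, 1507 and 1575 CPM in Ezh2 replicates 1 and 2, and 1069 CPM in Ezh2 replicate 3. Of these 7, 1 was called lower, and 4 were higher at the adjusted p alone, where 10.1% of all genes were. With all 6 libraries 1 was called lower, against 0.902% of all genes, and 0 were higher at the adjusted p alone, against 3.08%. The part of microglia in the rise of *Apoe* was not tested. Among the 12 tested Müller glia genes the lowest fold change was that of *Acsl3*, a fatty acid activating enzyme. It was -0.29 ± 0.05 (SE) on the log2 scale with an adjusted p of 1.10e-04 in edgeR. *Acsl3* was at 2086 to 2206 CPM in the GFP libraries, 1716 and 1794 CPM in Ezh2 replicates 1 and 2 and 1337 CPM in Ezh2 replicate 3. Of those 12 genes 2 were higher and 3 lower at the adjusted p alone, against 10.1% and 7.68% of all genes. With all 6 libraries these were 1 and 1, against 3.08% and 2.7%. The median log2 fold change of the 12 in the 5 libraries was -0.0031.

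Markers of reactive glia lay mostly on the other side of 0 from the 10 genes, with 6 of 8 fold changes positive. Of 8 genes, 3 were called, all higher, against 2.52% of all genes, and 1 was lower at the adjusted p alone, against 7.68%. *Gfap*, the intermediate filament of reactive glia and of astrocytes, was at 415, 413 and 426 CPM in the GFP libraries, 745 and 919 CPM in Ezh2 replicates 1 and 2 and 719 CPM in Ezh2 replicate 3. It rose by 1.01 ± 0.08 (SE) on the log2 scale at an adjusted p of 1.38e-05 in edgeR. Apart from *Gfap*, 0 of the 8 astrocyte markers passed the adjusted p. The part of astrocytes in the rise of *Gfap* was not tested. *Socs3*, which limits cytokine signaling through STAT3, rose by 0.83 ± 0.05 at 1.34e-12, from 96.5 to 107 CPM in the GFP libraries to 182 and 183 CPM in Ezh2 replicates 1 and 2 and 192 CPM in Ezh2 replicate 3. *Serpina3n*, a protease inhibitor of reactive astrocytes, rose by 0.75 ± 0.09 at 0.00110, from 368 to 387 CPM in the GFP libraries to 560 and 698 CPM in Ezh2 replicates 1 and 2 and 529 CPM in Ezh2 replicate 3. *Nes*, the filament nestin, had the lowest fold change, -0.30 ± 0.06 at 1.96e-04 in edgeR, from 136 to 147 CPM in the GFP libraries to 111 and 115 CPM in Ezh2 replicates 1 and 2 and 85.0 CPM in Ezh2 replicate 3. *Lcn2*, which encodes an iron-carrier binding protein of reactive glia and was picked out after its values were seen, had a log2 fold change of 0.66 ± 0.18 and an adjusted p of 0.113 in edgeR, and was called higher with all 6 libraries at 0.61 and 0.0262. For *Gfap*, *Socs3* and *Serpina3n* all 3 Ezh2 libraries were above all GFP libraries, also with the third Ezh2 library.

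**Figure D4:**
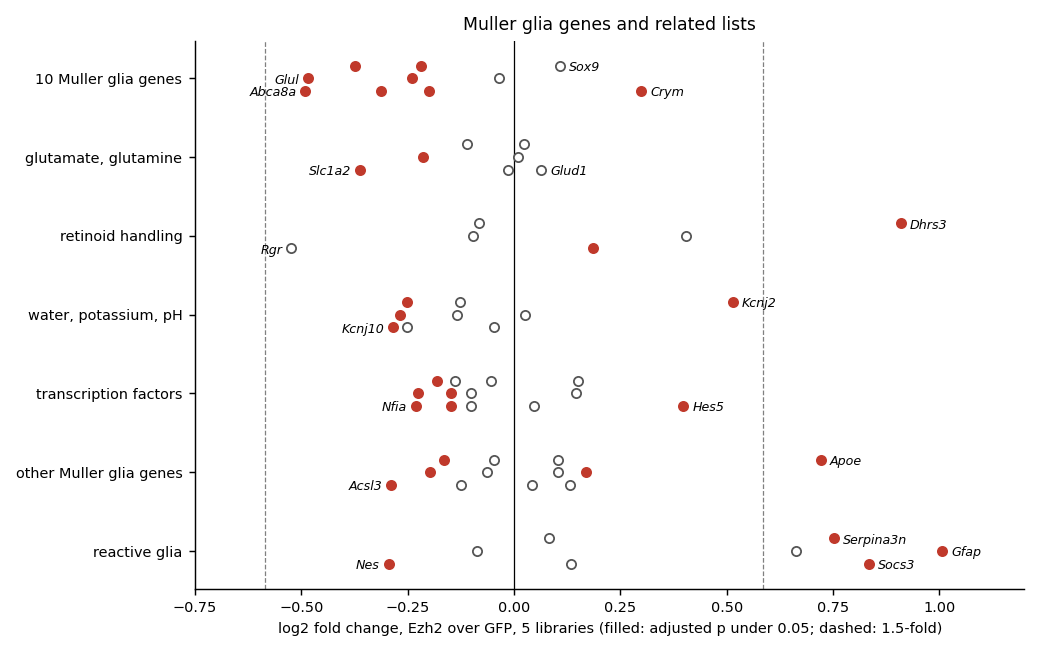
Log2 fold change, Ezh2 over GFP in the 5 libraries, of the 10 Müller glia genes and of 6 related lists, 1 point per tested gene, filled where the edgeR adjusted p was under 0.05. Of the 10 genes 7 filled points lie below 0 and *Crym* above, no point passes the dashed 1.5-fold line downward, and *Dhrs3*, *Apoe*, *Gfap*, *Socs3* and *Serpina3n* pass it upward as filled points, with *Lcn2* (0.66) as an open one.

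Over these 6 lists together, 5 genes were called higher and 0 lower, where 2.52% and 1.28% of all genes were. At the adjusted p alone 9 were higher and 14 lower, where 10.1% and 7.68% of all genes were. The fit of all 6 libraries gave fewer, and 7 were higher and 5 lower at the adjusted p alone, where 3.08% and 2.7% of all genes were. The lists were set with results of these libraries known, so their counts are no independent support. Summed markers of some other cells also differed between the groups, in both directions. A list of 8 rod markers summed to 401 to 471 CPM in the GFP libraries, 713 and 756 CPM in Ezh2 replicates 1 and 2 and 423 CPM in Ezh2 replicate 3, and 8 T cell markers to 371 to 398 CPM, 514 and 493 CPM and 680 CPM. The 12 RGC markers reached 176 and 164 CPM in Ezh2 replicates 1 and 2 and 177 CPM in Ezh2 replicate 3, all above the GFP range. Most of that sum was *Thy1*, the sorted marker. *Thy1* was at 87.2 to 92.6 CPM in the GFP libraries and at 109, 98.9 and 114 CPM in Ezh2 replicates 1, 2 and 3. Of the 10 RGC markers tested, 9 fold changes were positive and 1, that of *Isl1*, was negative. Below the GFP range in each Ezh2 library were 10 amacrine markers, at 512 to 529 CPM in the GFP libraries against 454, 446 and 402 CPM, and 7 endothelial and mural markers, at 2659 to 2810 CPM against 2552, 2603 and 2066 CPM. Most of the latter sum was *Kdr*, at 1720 to 2429 CPM over the 6 libraries. Most of the amacrine sum was *Pax6*, at 350 to 450 CPM, which is also in the list of glial and progenitor transcription factors. Of the 8 amacrine markers tested, 1 was called higher, *Tfap2c*, and 1 lower, *Tfap2b*, where 2.52% and 1.28% of all genes were. The 8 bipolar markers gave 630 to 641 CPM in the GFP libraries against 636, 577 and 524 CPM, and 7 B and plasma cell markers 475 to 525 CPM against 517, 487 and 296 CPM. At the adjusted p alone, 0 of 7 endothelial and mural and 0 of 8 bipolar markers passed in the 5 libraries. Of 7 B and plasma cell markers 1 passed, upward. Of 8 rod and 8 T cell markers, 6 and 7 were higher and 0 lower. Over all genes 10.1% were higher and 7.68% lower. With all 6 libraries 0 rod and 3 T cell markers were higher, against 3.08% of all genes. The part of these cells in the lower share of the 10 Müller glia genes was not tested.

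Per length of exon the order of the 10 genes in the GFP group was *Glul* at 2936 ± 57.3 RPKM, *Dkk3* at 1205 ± 25.5, *Rlbp1* at 513 ± 8.60, *Abca8a* at 424 ± 8.71, *Slc1a3* at 222 ± 5.65, *Crym* at 202 ± 2.57, *Car14* at 201 ± 3.52, *Aqp4* at 168 ± 3.86, *Sox2* at 57.7 ± 1.68 and *Sox9* at 37.0 ± 2.16 (SD, n = 3). *Crym* and *Car14* differed by less than their spread, and every other pair of neighbours was further apart than its SDs. Among tested genes *Glul* was 6th, *Dkk3* 13th and *Rlbp1* 29th by this level. In Ezh2 replicates 1 and 2 *Crym* at 247 ± 18.6 RPKM stood above *Slc1a3* at 192 ± 9.36 RPKM, a change of order from the GFP group, and in Ezh2 replicate 3 it was likewise above, at 196 against 151 RPKM. In the Ezh2 group *Glul* remained first at 2082 ± 8.29 RPKM.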

How the data were processed

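RNA-Seq counts of 6 libraries from sorted mouse retinal cells were used, 3 per group by their labels. The authors deposited raw read counts per Ensembl gene in 1 merged table. The submitters' processing notes name STAR 2.7.0d and genome build GRCm38, without a role. RNA came from a low-input kit and libraries from a stranded total RNA kit, per the labels. The counting program, the annotation release and the use of strand are not given in the sources used here.

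Symbols, coordinates and exon lengths came from GENCODE M21 (GRCm38), which matched 55480 of 55573 identifiers. CPM used library totals, and RPKM divided CPM by exon length in kilobases. Counts were filtered with filterByExpr, scaled by TMM and fitted with the quasi-likelihood test of edgeR 4.0.16 (robust) (R 4.3.3) on group alone. Benjamini-Hochberg adjustment covered all tested genes, each p is two-sided, and standard errors came from the F statistic. The main fit held 5 libraries. DESeq2 1.42.0, limma-voom (limma 3.58.1), other scalings and filters, each library left out in turn, and the replicate number as a block were alternatives. On simulated data the fit was checked before use. Same-numbered libraries did not deviate together (correlations from -0.0131 to -0.00625), and libraries of a group differed beyond sampling noise. Intervals and floors cover counting error only, as reads carry no molecular identifiers.

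The 10 genes and all gene lists were chosen with earlier results of these data known. The genes named are those 10, each called gene of the 6 related lists, the highest and the lowest fold change of each list, *Ezh2*, and defining markers of other cells. Columns of sample values left without a sample numbered 0.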

Additional observations from a re-analysis of the deposited data

How the results depend on the processing

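No fold change of the 10 genes changed sign under any alternative run (16 per gene, 15 for *Glul* and *Dkk3*, which are among the 10 most abundant genes and drop out when those are removed). With the adjusted p alone in place of both thresholds, 1 of the 10 genes was higher and 7 lower, 9 and 14 genes of the related lists were higher and lower, and 2050 and 1555 of all genes, where both thresholds gave 511 higher and 259 lower. With all 6 libraries 1 of the 10, *Abca8a*, was called lower and 320 genes were called higher. With the replicate block on all 6 libraries 1 of the 10 was called lower, again *Abca8a* (log2 fold change -0.59), and of all genes 275 were called higher and 121 lower. The numbers pair no libraries by any label, and with the replicate block on the 5 libraries 0 of the 10 genes were called and 4 were lower at the adjusted p alone. There *Dkk3* had an adjusted p of 0.0523, *Aqp4* 0.0592 and *Slc1a3* 0.110 in edgeR. The ratio of the summed shares moved to 0.833 without *Glul* and was 0.775 and 0.787 with the other denominators.

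Leaving out 1 library at a time, which assumes that a lone Ezh2 library varies like the others, kept calls among the 10 genes at 0 in each direction, calls in the related lists at 4 to 6 higher and 0 lower, and calls among all genes at 413 to 541 higher and 211 to 296 lower. Log2 fold changes then ranged from -0.50 to -0.47 for *Glul*, -0.52 to -0.46 for *Abca8a*, -0.42 to -0.33 for *Car14*, -0.26 to -0.14 for *Slc1a3* and 0.21 to 0.39 for *Crym*. Without Ezh2 replicate 1, 5 genes were lower at the adjusted p alone, and *Slc1a3* and *Aqp4* were not. The cause of these shifts was not tested. With all 6 libraries the genes of the related lists at the adjusted p alone became 7 higher and 5 lower. Depth was not the limit for the 10 genes, which had at least 3559 counts in every library.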
